A study of Saccharomyces cerevisiae with 16 samples.

Results

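RNA polymerase I makes the large ribosomal RNA precursor of yeast, and the transcripts described here encode its 7 own subunits, *RPA190*, *RPA135*, *RPA43*, *RPA14*, *RPA49*, *RPA34* and *RPA12*, together with *RRN3*, the factor that makes the enzyme ready to initiate. These 8 genes were chosen by name, with no measured value in the rule, but with earlier results of these data known. Each matched 1 probe set by its annotated symbol, and all 8 passed the filter on low values, out of 5449 genes with a symbol and 5213 tested.

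Ribosome production takes up much of the transcription of a growing yeast cell, and polymerase I transcribes the repeated ribosomal DNA in the nucleolus. A pair of large subunits forms the active centre, a stalk receives the initiation factor Rrn3, and a heterodimer and a small zinc-binding subunit act in initiation, elongation and RNA cleavage. Transcription of ribosome genes falls in yeast when nutrients run short, through the TORC1 kinase and other signals, and Rrn3 is known as a target of that control.

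Total RNA of the laboratory strain CEN.PK113-7D, a haploid baker's yeast used in physiology, was hybridised to 16 single-channel arrays, 8 for a series grown with oxygen (aerobic) and 8 for a series grown without it (anaerobic). All cells grew on mineral salts medium with glucose limiting at the start, and feed glucose was then raised until ammonia was limiting. Aerobic early samples were taken at 0, 4.1 and 6.85 h (feed glucose of 1, 5.51 and 8.5 g/L), mid samples at 9.6 and 14.5 h (11.56 and 16.96 g/L) and late samples at 27.25, 42.65 and 53.95 h (30.97, 47.91 and 60.34 g/L). Anaerobic early samples were taken at 0, 4.35 and 10.38 h (1, 4.87 and 10.31 g/L), mid samples at 16.88 and 26.52 h (16.19 and 24.86 g/L) and late samples at 35.67, 42.85 and 50.85 h (33.1, 39.56 and 46.75 g/L). The labels give no sample at which ammonia began to limit, and name no separate cultures, so p-values measure the spread among serial samples. Samples within an early, mid or late group differ in time and feed glucose, so that spread includes their course, and part of it may be technical.

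Values are log2 intensities, 1 unit being a doubling, and ± is the standard error of a log2 change in the limma fit over all 16 arrays unless other arrays are named. A change was called where its p-value, adjusted over all 5213 genes by the Benjamini-Hochberg method, was under 0.05. The aerobic 9.6 h array stood apart: its median correlation with the other aerobic arrays was 0.776 across tested genes, against 0.860 to 0.927 for each of those. Its median over tested genes was 11.61, within the 11.46 to 11.61 of the other aerobic arrays, and 2.00% of its genes lay under 4 log2 units, against 1.02% to 2.05%. Results are given with this array and without it, and also with the first array of each series, at 0 h, left out as well. Precision is limited by the number of arrays, labelling started from a fixed mass of total RNA, so levels are relative, and in these bulk samples fewer expressing cells and less transcript per cell cannot be told apart.

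All 7 subunit transcripts were at their aerobic minimum in the 9.6 h sample, and at 14.5 h lay between 0.38 and 1.45 log2 units below their 6.85 h levels, while *RRN3* was little lower at 9.6 h. Against the mean of the 6.85 h and 14.5 h arrays, 6 of the 8 members were lower by at least 2 log2 units, as were 7.90% of all tested genes. The median difference was -5.36 log2 units over the 7 subunits and 0.23 over all tested genes. All 8 members were below every other aerobic array, as were 25.0% of tested genes. This is 1 array, chosen for description because it was known to stand apart, so no test is given.

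**Figure D1:**
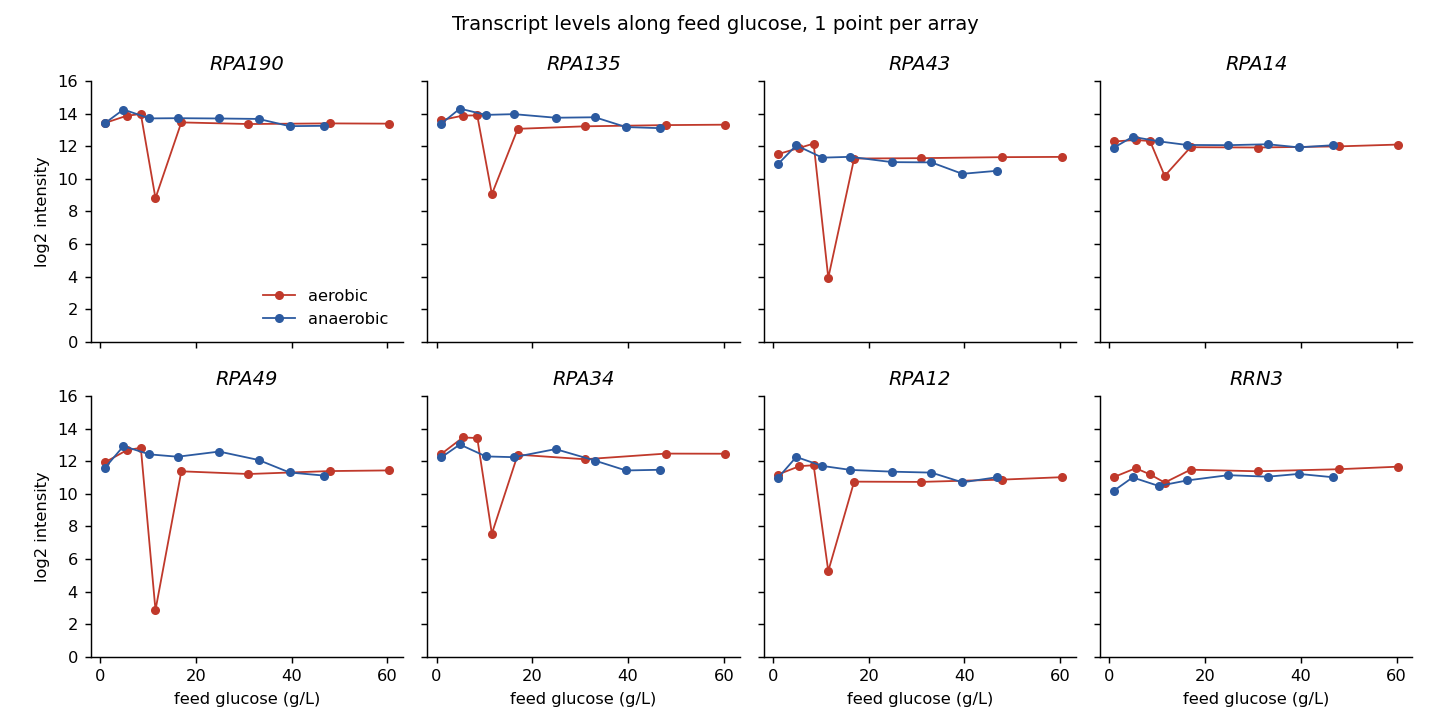
Log2 intensity (vertical axis) of each of the 8 transcripts against feed glucose in g/L (horizontal axis), 1 point per array, with aerobic arrays in red and anaerobic arrays in blue. The aerobic array at 11.56 g/L reaches 2.87 for *RPA49* and 3.92 for *RPA43*, while *RRN3* there is at 10.69.

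*RPA190* and *RPA135* encode the largest and second largest subunits, which form the catalytic centre. In the aerobic series *RPA190* was at 13.42, 13.86 and 13.98 in the early samples, 8.81 and 13.46 in the mid samples, and 13.36, 13.40 and 13.38 in the late samples. The 9.6 h value is thus 4.91 log2 units, or 30.0-fold, below its neighbours, and the 4 arrays from 14.5 h on lay within 0.10 log2 units of each other. Aerobic *RPA135* ran 13.60, 13.88 and 13.89 early, 9.06 and 13.07 mid, and 13.22, 13.30 and 13.32 late. Its 9.6 h value was 4.42 log2 units, or 21.4-fold, below the neighbours, a difference close to that of its partner. Without oxygen *RPA190* ran 13.41, 14.25 and 13.71 early, 13.72 and 13.70 mid, and 13.67, 13.23 and 13.25 late. Anaerobic *RPA135* ran 13.38, 14.31 and 13.92 early, 13.97 and 13.75 mid, and 13.78, 13.18 and 13.11 late. Both were highest at 4.35 h and lowest in 1 of the last 2 samples, and both were far above their aerobic 9.6 h values in every anaerobic array.

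*RPA43* and *RPA14* encode the stalk, and the *RPA43* product is the subunit that Rrn3 binds. *RPA43* ran 11.51, 11.89 and 12.16 in the aerobic early samples, 3.92 and 11.24 in the mid samples, and 11.27, 11.33 and 11.34 in the late ones. Its 9.6 h level was under 4 log2 units, where array values have little meaning, so measured down to 4 it was lower by at least 7.70 log2 units, or at least 208-fold. *RPA14* had the smallest difference among the subunits, with 12.29, 12.38 and 12.32 early, 10.18 and 11.94 mid, and 11.92, 11.99 and 12.10 late, and 1.95 log2 units, or 3.86-fold, below the neighbours at 9.6 h. From 14.5 h on *RPA43* spanned 0.10 and *RPA14* 0.18 log2 units, far less than the gap between their 9.6 h differences. Anaerobic *RPA43* ran 10.88, 12.05 and 11.30 early, 11.35 and 11.02 mid, and 11.01, 10.30 and 10.49 late. Anaerobic *RPA14* ran 11.92, 12.58 and 12.30 early, 12.08 and 12.06 mid, and 12.12, 11.93 and 12.06 late, the narrowest anaerobic range of the 8 genes at 0.66 log2 units. *RPA43* lies next to *RPA190* on its chromosome, the only pair of neighbouring genes among the 8.

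*RPA49* and *RPA34* encode the heterodimer that resembles parts of the general factors TFIIF and TFIIE of polymerase II. *RPA49* was at 11.93, 12.67 and 12.83 in aerobic early samples, 2.87 and 11.38 in mid samples, and 11.22, 11.40 and 11.44 in late samples. Its 9.6 h level was also under 4 log2 units, and measured down to 4 it was lower by at least 8.11, or at least 276-fold. *RPA34* ran 12.45, 13.46 and 13.43 early, 7.56 and 12.41 mid, and 12.12, 12.47 and 12.46 late, and at 9.6 h was 5.36 log2 units, or 41.0-fold, below its neighbours. The heterodimer genes had the largest differences of the 8 between 0 and 4.1 h, 0.74 for *RPA49* and 1.01 for *RPA34*, each from single arrays and untested. Anaerobic *RPA49* ran 11.59, 12.93 and 12.42 early, 12.28 and 12.60 mid, and 12.08, 11.31 and 11.12 late. Anaerobic *RPA34* ran 12.24, 13.03 and 12.30 early, 12.25 and 12.75 mid, and 12.04, 11.44 and 11.48 late. Both genes had a second high value at 26.52 h, which *RPA190*, *RPA135*, *RPA43*, *RPA14* and *RPA12* lacked.

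*RPA12* encodes the small zinc-ribbon subunit needed for RNA cleavage by the enzyme. It ran 11.18, 11.70 and 11.76 in aerobic early samples, 5.26 and 10.75 in mid samples, and 10.73, 10.87 and 11.02 in late samples. Its 9.6 h level was 5.99 log2 units, or 63.6-fold, below the neighbours. Anaerobic *RPA12* ran 10.96, 12.26 and 11.71 early, 11.47 and 11.36 mid, and 11.30, 10.71 and 11.02 late.

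*RRN3*, which binds the stalk and brings the polymerase to the promoter, followed another course. In the aerobic series it was at 11.04, 11.57 and 11.19 early, 10.69 and 11.48 mid, and 11.39, 11.51 and 11.67 late. Its 9.6 h value was 0.64 log2 units, or 1.56-fold, below the neighbours, and 0.34 below the next lowest aerobic array, which was the 0 h array. Without oxygen it ran 10.20, 11.01 and 10.49 early, 10.82 and 11.15 mid, and 11.05, 11.22 and 11.02 late. Its lowest anaerobic late value, 11.02, was nearly equal to its highest early value, 11.01.

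Subunits moved closely together, and *RRN3* was less like them than they were like each other. Over the 16 arrays, each centred on its series mean, Pearson's r between subunits ran from 0.961 to 0.998 across 21 pairs. Without the 9.6 h array it ran from 0.723 to 0.965, with a median of 0.925. The 7 pairs of *RRN3* with a subunit had r of 0.450 to 0.506 with all arrays and -0.206 to -0.023 without the 9.6 h array. Within the 8 aerobic arrays they had r of 0.695 to 0.753, but -0.35 to -0.05 within the 7 left without the 9.6 h array. Within the 8 anaerobic arrays they had -0.166 to 0.073. These are descriptions over serial arrays that share a culture series and a normalization.

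The genes whose course was most like the mean of the 8 members, by Pearson's r over the same 16 centred arrays, were *RIX1*, *URB2*, *UTP14*, *MTR4*, *PWP2*, *NOP14*, *UTP8*, *NOC2*, *UTP6* and *SYO1*, with r from 0.997 to 0.999. *PWP2*, *UTP14*, *NOP14* and *UTP6* encode proteins of the small-subunit processome, *RIX1*, *URB2* and *NOC2* act in making the large subunit, and *MTR4* is an RNA helicase of nuclear RNA processing. Without the 9.6 h array the 10 most alike were *BMS1*, *URB2*, *RIX1*, *PRT1*, *IMP3*, *UTP21*, *MTR4*, *PRS1*, *RPC40* and *NOC2*, with r from 0.974 to 0.987. *URB2*, *RIX1*, *MTR4* and *NOC2* were in both lists, *BMS1*, *IMP3* and *UTP21* belong to the small-subunit processome, *PRT1* encodes a translation initiation factor subunit, *PRS1* an enzyme of nucleotide precursor synthesis, and *RPC40* a subunit that polymerases I and III share.

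The other polymerases and the partners of polymerase I were then set beside the members at 9.6 h. Both subunits shared by polymerases I and III were lower, with log2 differences from the neighbouring arrays of -4.00 for *RPC40* and -2.80 for *RPC19*. The 5 subunits common to all 3 polymerases had differences from -2.45 (*RPB5*) to -1.17 (*RPB10*), and the 10 subunits of polymerase III from -3.49 to -0.86 with a median of -1.82. The 7 subunits of polymerase II had a median difference of 0.02 and ran from -1.06 (*RPB9*) to 0.27, and its largest subunit gene *RPO21* was at 13.82, 13.59 and 13.39 at 6.85, 9.6 and 14.5 h. All 7 genes of the t-UTP complex, which joins ribosomal DNA transcription to processing, were lower, with log2 differences from -6.65 (*UTP4*) to -4.32 (*NAN1*) for 6 of them. *UTP8* was under 4 log2 units at 9.6 h and, measured down to 4, was lower by at least 7.11. These genes and those in the next paragraph are named for values at 9.6 h that were seen first.

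Initiation factors did not share the subunits' course as a group. In the core factor *RRN6* and *RRN7* differed by -0.34 and -0.86 log2 units at 9.6 h, but *RRN11* was at 10.66, 3.49 and 8.31 at 6.85, 9.6 and 14.5 h, lower by at least 5.48 measured down to 4. The 4 upstream activation factor genes had differences from -1.18 (*UAF30*) to 0.89 (*RRN10*), and those for *SPT15*, the TATA-binding protein, and *HMO1*, which binds ribosomal DNA, were -0.24 and -0.27. For polymerase III, 8 initiation factor genes were listed, *TFC1*, *TFC3*, *TFC4*, *TFC6*, *TFC7*, *TFC8*, *BRF1* and *BDP1*, which is not a full set. Their differences were 0.06 to 0.69, inside the -0.37 to 0.71 between the quartiles of all tested genes. Among 6 regulators, *TOD6* was at 10.47, 3.36 and 9.87 over the same 3 arrays, lower by at least 6.17 measured down to 4, whereas its paralog *DOT6*, the other repressor of ribosome biogenesis genes of this family, was at 10.68, 11.81 and 10.83. *MAF1*, the repressor of polymerase III, was higher by 0.77 and *SFP1*, an activator of ribosome genes, by 0.04.

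**Figure D2:**
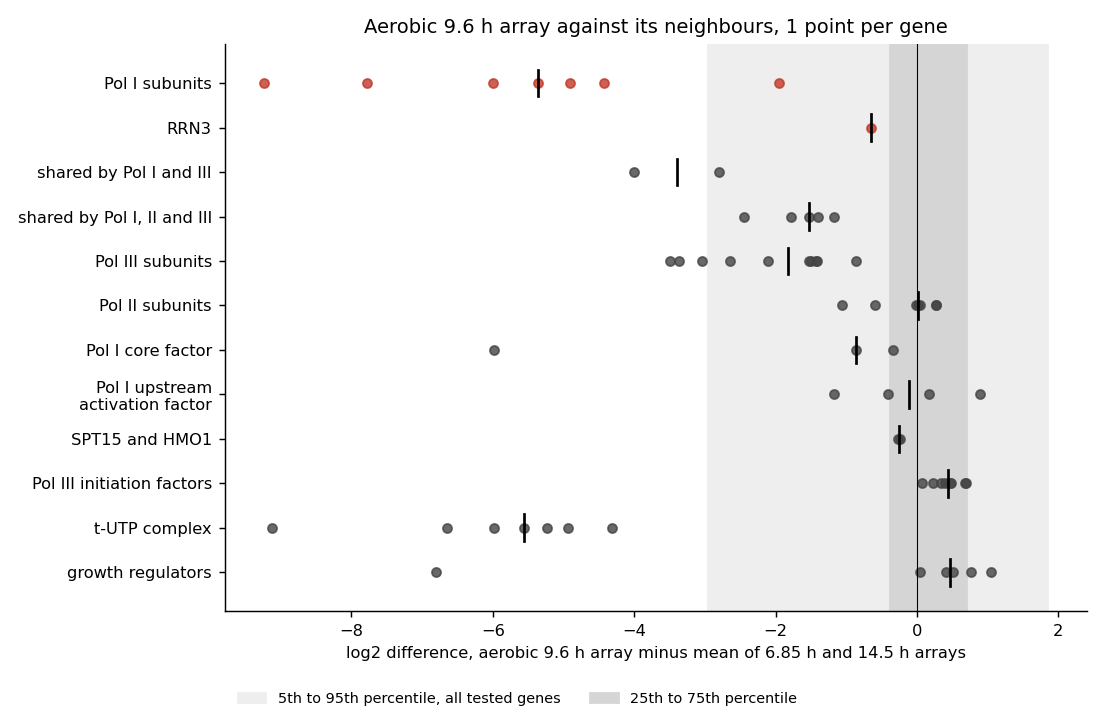
Log2 difference between the aerobic 9.6 h array and the mean of the arrays at 6.85 and 14.5 h (horizontal axis), 1 point per gene, by gene group (vertical axis), with black bars at group medians. Shading gives the 5th to 95th and the 25th to 75th percentiles of all tested genes, which are -2.96 to 1.86 and -0.37 to 0.71, and points for levels under 4 log2 units are drawn as measured.

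The mid samples as a group were compared with the mean of early and late samples, which asks whether the middle of a series departs from its ends. In the aerobic series limma called 0 of the 8 members, against 0.633% of all tested genes. An unadjusted p under 0.05 was found for 7 members and for 1872 of the 5213 tested genes. The subunits' values ran from -4.79 ± 1.45 for *RPA49* to -1.11 ± 0.32 for *RPA14*, with adjusted p-values from limma of 0.0571 to 0.0634, and *RRN3* had -0.31 ± 0.24 (adjusted p = 0.358). Without the 14.5 h array, which leaves the 9.6 h array alone as the mid sample with a spread taken from the other groups, the 7 subunits were called lower, with 17.1% of tested genes. Without the aerobic 0 h array the 7 subunits were called lower too, with 17.5% of tested genes, at limma adjusted p-values of 0.031 to 0.0428. Without the 9.6 h array 0 were called, with values from -0.53 to 0.09. In the anaerobic series 0 of 8 members and 0% of tested genes were called by limma, with 0 members and 99 genes at an unadjusted p under 0.05.

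Outside the 9.6 h array, the 7 subunit transcripts were highest soon after the start and lower later. All 8 members were higher at 4.1 h than at 0 h with oxygen, as were 52.2% of tested genes, and all 8 were higher at 4.35 h than at 0 h without oxygen, as were 42.5%. The median step of the 8 was 0.48 log2 units with oxygen and 0.88 without, against 0.02 and -0.09 over all tested genes. The largest steps without oxygen were 1.34 for *RPA49* and 1.30 for *RPA12*. These are single arrays, and the 0 h arrays were known from earlier results to differ from the following ones.

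**Figure D3:**
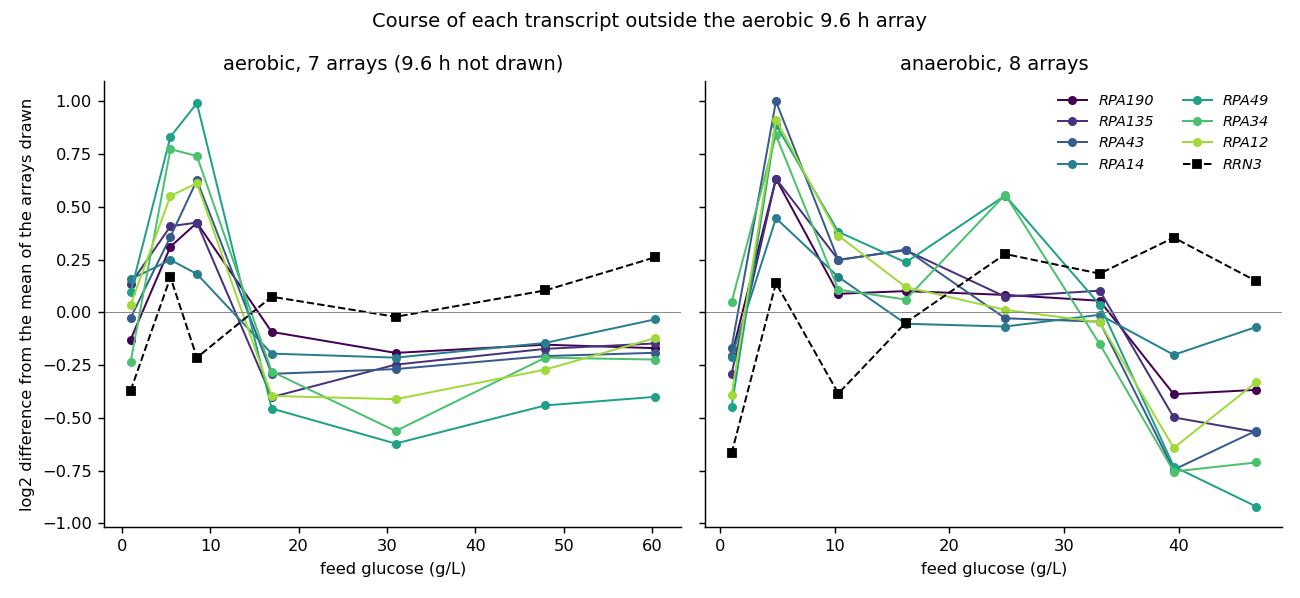
Log2 difference of each transcript from its own mean over the arrays drawn (vertical axis) against feed glucose in g/L (horizontal axis), with the aerobic 9.6 h array left out. The 7 subunits, in colours, are above their means at the second array of each series and below them from 16.96 g/L on with oxygen and at 39.56 and 46.75 g/L without, while *RRN3*, in black, is above its mean in the last 2 arrays of each series.

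With oxygen the lower level was in place at 14.5 h. From 14.5 to 53.95 h, while feed glucose went from 16.96 to 60.34 g/L, no member spanned more than 0.35 log2 units. Without oxygen 5 of the 8 members were lower by at least 0.5 log2 units at 42.85 h than at 35.67 h, as were 7.50% of tested genes. These were *RPA49* by 0.77, *RPA43* by 0.70, *RPA34* by 0.60, *RPA135* by 0.60 and *RPA12* by 0.60, while *RPA190* and *RPA14* were lower by 0.44 and 0.19 and *RRN3* was higher by 0.17. The samples on either side of that step had 33.1 and 39.56 g/L in the feed.

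The low-glucose and high-glucose ends of the aerobic series were compared next. In the fit of all 16 arrays limma called 0 of the 8 members, against 15.5% of tested genes. An unadjusted p under 0.05 was found for 0 members and 1665 tested genes. The changes from early to late ran from -1.13 ± 1.45 for *RPA49* to -0.33 ± 0.32 for *RPA14*, with 0.25 ± 0.24 for *RRN3*, and adjusted p-values from limma of 0.502 to 0.796. These errors pool the spread of all 6 groups, including the aerobic mid group that holds the 9.6 h array. With early and late arrays only, the standard errors were 0.15 to 0.36. Limma then called 0 members, and 3 members and 1983 genes had an unadjusted p under 0.05. Late arrays lay wholly below early arrays for 6 members, *RPA34* and *RRN3* being the exceptions, and for 17.6% of tested genes. Without the 9.6 h array the standard error for *RPA49* was 0.35 and it alone of the 8 was called lower (limma adjusted p = 0.0405). That fit called 7.35% of tested genes lower. Leaving out the 14.5 h array instead gave *RPA49* the same change of -1.13. That is not a second result, because the early and late arrays are the same and a mid group of 1 array adds nothing to the spread.

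When both 0 h arrays were left out together with the aerobic array at 9.6 h, all 7 subunits fell from early to late in the aerobic series, against 21.4% of tested genes called lower. *RPA49* fell by 1.40 ± 0.26 (limma adjusted p = 0.0014), *RPA34* fell by 1.09 ± 0.25 (0.0044), and *RPA12* fell by 0.85 ± 0.20 (0.0045). The catalytic subunits *RPA135* and *RPA190* fell by 0.61 ± 0.19 and fell by 0.54 ± 0.16 (limma adjusted p = 0.0183 and 0.0175). In the stalk *RPA43* fell by 0.71 ± 0.24 and *RPA14* fell by 0.35 ± 0.11 (limma adjusted p = 0.0294 and 0.0225). *RRN3* was not called, with 0.14 ± 0.18 (limma adjusted p = 0.545). This choice of arrays was made with their values known, and the early group then holds 2 arrays in each series.

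The same comparison without oxygen gave like sizes. Over all 16 arrays limma called 0 of 8 members, against 6.04% of tested genes. An unadjusted p under 0.05 was found for 1 member, *RRN3*, and for 1168 tested genes. *RRN3* had 0.53 ± 0.24 (limma adjusted p = 0.21) and the subunits ran from -0.87 ± 0.86 for *RPA34* to -0.23 ± 0.32 for *RPA14*. These errors too include the spread of the aerobic mid group. With early and late arrays only they were 0.15 to 0.36. Limma then called 0 members, and 5 members and 1490 genes had an unadjusted p under 0.05. Late arrays lay wholly below early arrays for *RPA34* alone, and for 14.9% of tested genes. With only the aerobic 9.6 h array left out, limma again called 0 members, at adjusted p-values of 0.0857 to 0.308. That fit called 276 of the tested genes higher and 257 lower. Without the 3 arrays all 7 subunits fell, against 19.7% of tested genes called lower. *RPA49* fell by 1.17 ± 0.26, *RPA43* fell by 1.07 ± 0.24 and *RPA34* fell by 1.01 ± 0.25 (limma adjusted p = 0.0078, 0.0088 and 0.0117). *RPA12* fell by 0.98 ± 0.20, *RPA135* fell by 0.76 ± 0.19, *RPA190* fell by 0.59 ± 0.16 and *RPA14* fell by 0.40 ± 0.11, with limma adjusted p-values from 0.0058 to 0.0176. *RRN3* had 0.35 ± 0.18 and was not called (0.153). The early group of this fit holds only the 4.35 and 10.38 h arrays, so these calls depend on leaving out the 0 h array. At 0 h *RPA12*, *RPA43*, *RPA49*, *RPA135* and *RPA190* lay within the range of their late values, *RPA14* below it and *RPA34* above it.

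**Figure D4:**
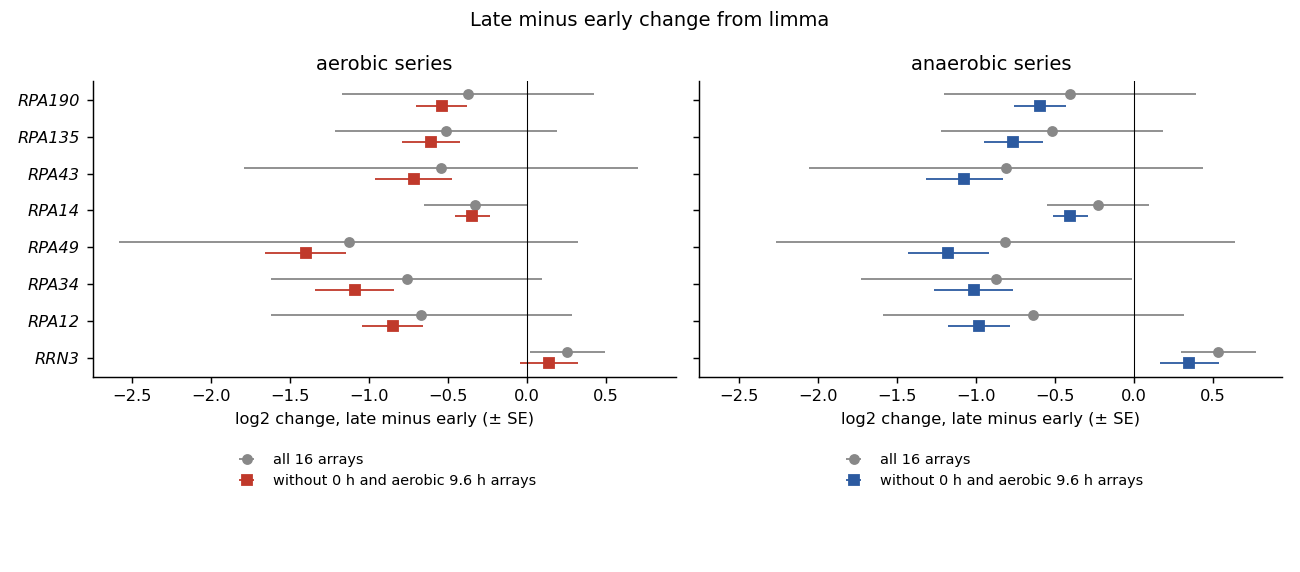
Log2 change from early to late samples (horizontal axis) with its standard error for each transcript (vertical axis), in grey from the fit of all 16 arrays and in colour from the fit that leaves out both 0 h arrays and the aerobic one at 9.6 h. The subunits lie between -1.40 and -0.35 with oxygen and between -1.17 and -0.40 without oxygen in the second fit, with *RRN3* at 0.14 and 0.35.

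The change from early to late was compared between the series in the same model. With all arrays 0 of 8 members were called by limma, against 1.82% of tested genes, and 0 had an unadjusted p under 0.05. The anaerobic minus aerobic difference of changes ran from -0.27 to 0.31 with standard errors of 0.34 to 2.05. Without the 3 arrays it ran from -0.36 ± 0.34 for *RPA43* to 0.23 ± 0.36 for *RPA49*, again with 0 called and 0 at an unadjusted p under 0.05. These errors leave a difference between the series as large as the subunits' own changes undetectable with all arrays.

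Among the listed partners, the shared subunits, the polymerase III subunits and the t-UTP genes had negative median changes from early to late in both series, from -0.80 to -0.31. With all arrays limma called 0 of these 24 genes in either series. With and without oxygen, 1 and 0 of them had an unadjusted p under 0.05, as had 1665 and 1168 of all tested genes. Without the 3 arrays 21 of the 24 fell with oxygen and 16 fell without, beside the 21.4% and 19.7% of tested genes called lower in those fits. Of the polymerase II subunits *RPB3* fell in both series with all arrays, by 0.53 ± 0.15 with oxygen and by 0.68 ± 0.15 without (limma adjusted p = 0.0338 and 0.0206). Without the 3 arrays 4 of the 7 fell in each series and 1 rose with oxygen, where 33.1% of tested genes were called higher.

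Of the 8 listed polymerase III initiation factors, 5 rose with oxygen in the fit of all arrays and 5 in the fit without the 3 arrays. Beside them 11.2% and 33.1% of tested genes were called higher. *BRF1* rose by 0.60 ± 0.16 and *TFC4*, a subunit of TFIIIC, by 0.55 ± 0.13 (limma adjusted p = 0.0251 and 0.0175). Without oxygen 0 of 8 were called, against 6.04% of tested genes, with 0 of 8 and 1168 tested genes at an unadjusted p under 0.05. The difference between the series was called for 0 of 8 by limma, against 1.82% of tested genes. There 3 of 8 and 758 tested genes had an unadjusted p under 0.05. *SCH9*, the kinase downstream of TORC1, rose by 1.20 ± 0.14 with oxygen (limma adjusted p = 0.00043), and its anaerobic change was lower by 1.28 ± 0.20 (limma adjusted p of the difference = 0.0098). *MAF1* rose by 0.81 ± 0.24 with oxygen (0.0405). The core factor and the upstream activation factor had 0 genes called in either series with all arrays. With and without oxygen, 3 and 0 of their 7 genes had an unadjusted p under 0.05, as had 1665 and 1168 of all tested genes. Without the 3 arrays *RRN11* fell by 1.54 ± 0.35 with oxygen and fell by 1.29 ± 0.35 without, and *RRN10* and *RRN5* of the upstream activation factor rose with oxygen by 0.74 ± 0.15 and 0.50 ± 0.13 (limma adjusted p = 0.004, 0.0156, 0.0022 and 0.0089).

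The series were also compared over all phases, with 1 series per condition, so oxygen and culture cannot be told apart. Of the 8 members *RRN3* alone was called, lower without oxygen by 0.41 ± 0.15 (limma adjusted p = 0.0264), against 70.3% of tested genes called and 62.3% called lower. The median of all tested genes was -0.51, and after each array was centred on its median *RRN3* had 0.18 ± 0.16 (0.358), so its direction depends on the scaling. Its call was also lost without the aerobic 4.1, 14.5 or 53.95 h or the anaerobic 16.88 h array, with values of -0.39 to -0.28. The subunits had 0.33 ± 0.20 (*RPA14*) to 1.77 ± 0.91 (*RPA49*), not called, with the aerobic 9.6 h array in the mean. Without the 14.5 h array the 7 subunits were called higher, with 15.3% of tested genes. Without the 9.6 h array alone *RPA34* and *RPA43* had -0.40 ± 0.21 and -0.41 ± 0.19.

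Without the 3 arrays 2 members were higher without oxygen, *RPA12* by 0.35 ± 0.13 and *RPA135* by 0.36 ± 0.12 (limma adjusted p = 0.0248 and 0.0169), against 10.7% of tested genes called higher. In that fit 3 were lower, *RPA34* with -0.46 ± 0.16, *RPA43* with -0.37 ± 0.16 and *RRN3* with -0.52 ± 0.12 (limma adjusted p = 0.0225, 0.0491 and 0.0023), against 68.5% called lower. When the arrays were also centred on their medians, limma called 5 members higher, with 36.1% of tested genes, and 0 lower. These were *RPA49* by 0.97 ± 0.17, *RPA135* by 0.95 ± 0.13, *RPA12* by 0.94 ± 0.13, *RPA190* by 0.69 ± 0.11 and *RPA14* by 0.67 ± 0.07, while *RPA34*, *RPA43* and *RRN3* had 0.13, 0.21 and 0.07. The deposited values thus do not fix the direction of an oxygen difference for *RPA34*, *RPA43* or *RRN3*. The other 5 were higher without oxygen in both of these fits. Before centring, however, *RPA14*, *RPA190* and *RPA49* were not called, with 0.08 ± 0.07, 0.10 ± 0.11 and 0.38 ± 0.17.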

How the data were processed

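The authors deposited log2 intensities, 1 per probe set and array, made with GCRMA per the submitters' processing notes. Its version and options are not stated there, nor is it known whether both series were processed in 1 run, and base 2 was inferred from values of 1.96 to 16.75. Of the 5716 probe sets, 218 carried no symbol, 5498 carried 1 and 0 carried more. The probe set of highest mean stood for each of 5449 genes. The 5213 genes at or above 4 log2 units in 3 or more arrays were tested.

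Phases were set from feed glucose in the labels. Means of 6 groups were fitted with limma (3.58.1, in R 4.3.3) by lmFit and trended eBayes, leaving 10 residual degrees of freedom. The model was run on simulated data with independent noise. That check cannot speak to a course within groups or to an array that stands apart, because the simulation held neither. All 8 members are named, and of each other list up to 2 of the largest called changes per comparison, with exceptions stated. Members, lists, phases and alternatives were chosen with earlier results of these data known. Alternatives changed the filter, normalization, probe summary, variance model, phase limits, slope and arrays used. Promoter sequences were not used here.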

Additional observations from a re-analysis of the deposited data

Results flagged for a closer look

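Within the 8 aerobic arrays, the 9.6 h array was farther from the nearest other array, as a share of the whole range, than Dixon's critical value for 8 samples for 7 of the 8 transcripts. The shares were 0.842 for *RPA12*, 0.790 for *RPA14*, 0.774 for *RPA34*, 0.889 for *RPA43*, 0.838 for *RPA49*, 0.829 for *RPA135* and 0.881 for *RPA190*. None of the other arrays passed in 16 screens of 8 members in 2 series, and *RRN3* did not pass in either. Chance alone passes about 1 group in 20 among independent replicates, which serial arrays of 1 series are not. All 7 results come from the same array, which earlier results had already set apart.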

How the results depend on the processing

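The number of members called stayed at 0 for the difference of changes and for the anaerobic mid samples in each alternative run. For late minus early it went from 0 to 7 in each series when both 0 h arrays and the aerobic one at 9.6 h were left out ("without the 3 arrays"), and to 1 in the aerobic series without the 9.6 h array. With 1 array left out in turn the aerobic count ran from 0 to 1 and the anaerobic one stayed at 0. On a linear slope of feed glucose in place of phases 0 were called, and aerobic slopes per 10 g/L turned upward, at 0.11 for *RPA12*, 0.019 for *RPA14*, 0.068 for *RPA34*, 0.18 for *RPA43*, 0.13 for *RPA49*, 0.074 for *RPA135* and 0.10 for *RPA190*. These slopes include the 9.6 h array, the aerobic minimum of each subunit, which lies toward the low-glucose end. A slope without that array was not fitted. For aerobic mid samples, 4 were called after a second quantile normalization and 0 to 7 with 1 array left out. There *RRN3* turned to 0.087 without the 9.6 h array and 0.029 without the 3 arrays, and ran from -0.70 to 0.087 with 1 array left out. For anaerobic minus aerobic, the count of 1 became 4 after a second quantile normalization, 5 after median centring, 5 without the 3 arrays, 5 with both of the last changes (chosen after seeing the data), and 0 to 7 with 1 array left out. *RRN3* turned to 0.17 and 0.18 after the second quantile normalization and median centring, and to 0.069 when the 3 arrays were also left out. *RPA34* turned to -0.40 without the 9.6 h array, -0.46 without the 3 arrays and -0.13 with the 2 lowest and 2 highest feeds as early and late, and ran from -0.40 to 1.22 with 1 array left out. *RPA43* turned to -0.41 without the 9.6 h array and -0.37 without the 3, and ran from -0.41 to 2.04 with 1 array left out. The cause was not tested. Where a group kept 1 array, its spread was assumed equal to that of the other groups. The aerobic mid and the anaerobic minus aerobic calls made without the 14.5 h array thus rest on the 9.6 h array as the only aerobic mid sample. No paired analysis was possible because the labels give no replicate numbers. Values under 4 log2 units at 9.6 h, reached by *RPA43*, *RPA49*, *UTP8*, *RRN11* and *TOD6*, limit the size of differences and fitted changes that use that array.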
